A study of Mus musculus with 6 samples.

Results

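The replication-dependent histone genes are the 67 protein-coding genes of chromosomes 1 to 19 whose GENCODE vM21 symbol begins with Hist1h, Hist2h, Hist3h or Hist4h, out of 20807 protein-coding genes on these chromosomes. They comprised 6 genes for the linker histone H1, 18 for H2A, 18 for H2B, 12 for H3 and 13 for H4. A member was counted as carrying a peak when a DPPA4 peak overlapped, by at least 1 bp, the gene or the interval from 2.5 kb upstream to 0.5 kb downstream of one of its transcript starts. DPPA4 was profiled by CUT&RUN, in which an antibody tethers a nuclease to chromatin and the released fragments are sequenced. All cells came from 1 mouse ESC line of mixed BL6/129 strain, named EHMT2-dTAG-mcherry-mervl-gfp, in which a dTAG degradation tag is fused to the histone methyltransferase EHMT2 and GFP is driven by the MERVL retroviral promoter. Every sample was exposed to dTAG for 72 h. Live cells were sorted into GFP-negative ESCs and GFP-positive 2-cell-like cells (2CLCs), with 2 DPPA4 libraries for each. Both groups thus shared the EHMT2 tag, the reporter and the dTAG exposure, and no cells with intact EHMT2 entered the comparison. The reporter that defines the GFP-positive cells marks MERVL activity and not a measured stage of the embryo.

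The deposited data were 1 peak list for each sorted population, pooled over its 2 libraries. Replicate error is therefore unknown for every value, and differences between the lists are descriptions without a test. The GFP-negative list had 81913 peaks on chromosomes 1 to 19, the GFP-positive list had 53110, and how many reads were kept behind either after filtering is unknown. Strength is given as the −log10 q of a peak, as the fold enrichment over the local background, and as a percentile, the rank of a peak's −log10 q within its own list.

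Replication-dependent histone genes supply the bulk of nucleosomal histone during S phase. They are short and without introns, lie in clusters of near-identical copies, and give transcripts that end in a stem-loop in place of a poly(A) tail. H2A and H2B genes often stand head to head and share a promoter. DPPA4 is a chromatin protein of pluripotent cells and early embryos that binds many gene promoters with its partner DPPA2.

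The near identity of the members bears on how well a peak can be placed, since reads that matched several copies were each assigned to a single position. The stretches of 31 coding bases with the most copies in the mouse genome are printed here to show how alike the copies are. Each was read from GRCm38, which carries the mm10 sequence, in the sense of the gene named.

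H2A, Hist3h2a: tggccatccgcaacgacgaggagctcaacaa

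H2B, Hist3h2ba: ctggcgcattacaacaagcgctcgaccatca

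H3, Hist1h3h: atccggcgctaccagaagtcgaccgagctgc

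H4, Hist1h4j: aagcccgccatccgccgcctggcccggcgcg

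The H2A stretch occurred 22 times in the genome and was present in 17 of the 18 H2A members. The H2B stretch occurred 18 times and was present in 17 of the 18 H2B members. The H3 stretch occurred 12 times, once in each of the 12 H3 members, and the H4 stretch occurred 11 times, in 11 of the 13 H4 members. Repetition ran through most of the coding sequence of the core histones and not of H1. In the median member, 88.5% of the 31-base words of the H2A coding sequence, 86% of those of H2B, 91.2% of those of H3 and 78.5% of those of H4 had more than 1 copy, against 16.6% for H1. Upstream sequence was different. Only 10 of the 67 members had a median copy number above 1 in the 300 bp before the start codon.

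Those 10 included recent duplicates, among them the Hist2h3c2 and Hist2h3c1 genes for H3, which carried the strongest member peaks of the GFP-negative list. The 250 bases before the RefSeq start of Hist2h3c2 (mm10 chr3:96239128-96239377, minus strand) are shown as the sequence under the strongest member peak of both lists. They share an unbroken run of 231 bases with the 250 bases before the start of Hist2h3c1, and they held no CCAAT box, no TATA box and no octamer.

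Hist2h3c2 promoter: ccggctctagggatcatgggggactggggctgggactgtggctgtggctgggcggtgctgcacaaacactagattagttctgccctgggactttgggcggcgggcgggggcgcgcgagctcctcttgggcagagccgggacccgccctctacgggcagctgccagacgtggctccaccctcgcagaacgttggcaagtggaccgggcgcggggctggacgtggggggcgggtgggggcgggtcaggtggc

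The segments between the starts of divergent H2A and H2B genes are shown next because a peak covered each of the 12 such pairs in both lists. The one between Hist1h2ap and Hist1h2br (chr13:21833508-21833742, plus strand) contains all 167 bases that separate the starts of Hist1h2ao and Hist1h2bq, a second duplicated pair. The one between Hist1h2aa and Hist1h2ba (chr13:23934157-23934436, minus strand) serves a testis-type pair and is single-copy. Both are written in the sense of the H2B gene, and capitals mark the CCAAT box, the TATA box (TATAAA) and the octamer (ATTTGCAT) on either strand.

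Hist1h2ap/Hist1h2br: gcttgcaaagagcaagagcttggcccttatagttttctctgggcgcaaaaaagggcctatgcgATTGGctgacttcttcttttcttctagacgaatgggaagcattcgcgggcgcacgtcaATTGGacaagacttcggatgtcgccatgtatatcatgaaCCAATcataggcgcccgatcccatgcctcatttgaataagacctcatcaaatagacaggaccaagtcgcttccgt

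Hist1h2aa/Hist1h2ba: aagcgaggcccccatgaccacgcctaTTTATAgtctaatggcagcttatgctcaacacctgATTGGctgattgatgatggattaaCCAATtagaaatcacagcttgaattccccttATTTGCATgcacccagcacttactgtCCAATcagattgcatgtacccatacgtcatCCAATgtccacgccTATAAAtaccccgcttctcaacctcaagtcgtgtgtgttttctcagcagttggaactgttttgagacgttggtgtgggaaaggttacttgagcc

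DPPA4 peaks were present at nearly every replication-dependent histone gene in both cell populations. In the GFP-negative list 66 of 67 members carried a peak, against 77.4% of all protein-coding genes. In the GFP-positive list 66 of 67 members carried a peak, against 71.1% of all protein-coding genes. The same 66 genes were counted in both lists, where 69.0% of all protein-coding genes carried a peak in both and 20.5% in neither. With all peaks counted, no member had a peak in 1 list only. With only the 10000 strongest peaks of each list, 26 members (38.8%) carried one in the GFP-negative list, against 34.8% of all genes. In the GFP-positive list 49 members (73.1%) did, against 33.5%. This cut keeps a smaller part of the GFP-negative list, which had 81913 peaks against 53110. By percentile, the GFP-negative value was the higher at 32 of the 66 members with a peak. The median difference, GFP-negative minus GFP-positive, was -0.199 percentile points. Hist1h1t, the testis linker histone H1t, was the member with no peak in either list. It was also the only member whose coding sequence held no 31-base word with more than 1 copy. The part of read placement in its lack of a peak, or in the peaks of the other 66 members, was not tested. Members lay close together, and their windows merged into 33 loci, of which 32 carried a peak in each list.

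The windows of the members had a median of 3039 bp, against 20129 bp over all protein-coding genes. Among the 1754 protein-coding genes with a window of at most 5000 bp, 47.1% carried a peak in the GFP-negative list and 44% in that of GFP-positive cells, whereas 59 of the 60 members of that size did in each list. The peaks also lay over the gene starts. An annotated transcript start was within a peak at 63 of 67 members in the GFP-negative list, against 66.7% of all genes, and at 65 of 67 members in the GFP-positive list, against 58.4% of all genes. The start codon itself was within a peak at 66 of 67 members in each list, a share that was not computed over all genes.

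The share changed when peaks in repeated sequence were set aside. With only peaks whose summit lay in single-copy sequence, 31 members (46.3%) carried a peak in the GFP-negative list and 32 (47.8%) did in that of GFP-positive cells. Under the same filter 74.7% and 67.1% of all protein-coding genes carried one, with windows that were mostly longer. Genes with a window of at most 5000 bp reached 47.1% and 44% before the filter, and their share under it was not computed. Whether members fell below genes of like size is therefore unknown. The filter removed peaks by the position of the summit and not by their extent. At 57 members the 300 bp before the start codon were single-copy in the median. Those bases were touched by a peak at 56 of these members in each list. They lay entirely within 1 peak at 46 members in the GFP-negative list and at 50 in that of GFP-positive cells. The same counts were not made over all genes. Member peaks had median widths of 1675 and 1958 bp, so a peak with its summit in repeated coding sequence can reach these bases.

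Summits clustered just downstream of the start codon. The members' windows held 50 distinct GFP-negative and 47 distinct GFP-positive peaks, and many served more than 1 gene. In the GFP-negative list 18 peaks touched the window of 1 member, 23 those of 2 members and 9 those of 3 or 4. Relative to the nearest start codon, the median summit lay 111 bp downstream in the GFP-negative list and 148 bp downstream in the GFP-positive list. Of the summits, 27 of 50 and 26 of 47 fell inside the coding sequence of a member. These summits were mostly in repeated sequence, with more than 1 copy at 25 of 27 in the GFP-negative list and at 19 of 26 in the GFP-positive list. Outside coding sequence, 5 of 23 and 4 of 21 summits were repeated. Over the whole lists, 12.2% of GFP-negative and 25.7% of GFP-positive peaks had a repeated summit, and among peaks at all protein-coding promoters 3.11% and 5.14% did. The part that the random placement of reads played in the summit positions was not tested.

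**Figure D1:**
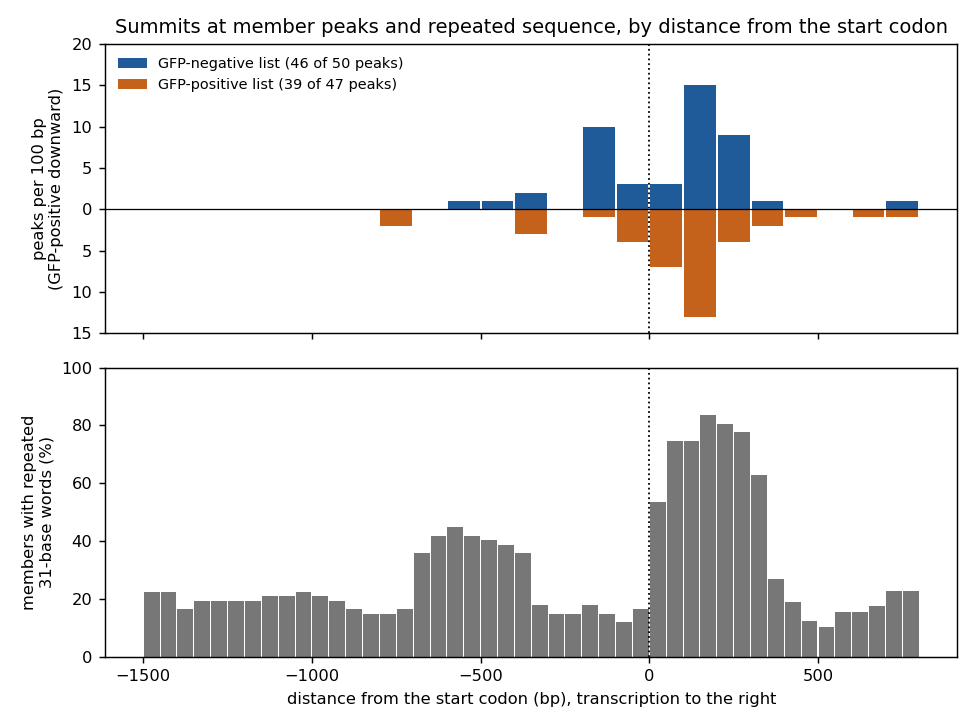
The upper panel counts summits of peaks at histone genes in 100-bp bins of distance from the nearest start codon, GFP-negative upward and GFP-positive downward, and the lower panel gives the percent of the members measured in each 50-bp bin (67 up to 399 bp, fewer beyond) whose 31-base words had a median of more than 1 genomic copy. Summits gathered within the first 300 bp of coding sequence, where up to 83.6% of members were repeated. In the bins that begin 350 to 200 bp upstream 14.9% to 17.9% were repeated. Farther upstream, in the bins that begin at -700 to -400 bp, 35.8% to 44.8% were.

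Peaks at the histone genes were stronger and broader than most peaks of their list. In the GFP-negative list the 50 member peaks had a median −log10 q of 14, a median fold enrichment of 8.43 and a median width of 1675 bp. All 81913 peaks of that list had a median −log10 q of 3.71 and a median width of 643 bp, and the 23214 peaks at protein-coding promoters had medians of 7.62 and 1009 bp. In the GFP-positive list the 47 member peaks had a median −log10 q of 11.2, a median fold enrichment of 7.15 and a median width of 1958 bp. There the medians were 3.44 and 824 bp over all peaks, and 5.72 and 1156 bp over the 17787 promoter peaks. A peak with −log10 q of at least 10 was present at 58 of 67 members in the GFP-negative list, against 53.5% of all protein-coding genes, and at 51 of 67 members in the GFP-positive list, against 36.2%.

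Set beside genes that carried a peak, rather than beside all peaks, the members were not exceptional. The strongest peak of a member had a median −log10 q of 15.9 in the GFP-negative list, above 46.4% of the 16110 genes with a peak. In the GFP-positive list the median was 13.3, above 60.6% of the 14792 genes with a peak.

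The core histone types lay close together, and H1 had the lowest median in both lists. For the peak over each start codon, the median −log10 q in the GFP-negative list was 16.4 for H2A, 15.9 for H2B, 13.6 for H3, 17.2 for H4 and 9.93 for the 5 H1 genes with a peak. In the GFP-positive list the medians were 13.5 for H2A, 13.4 for H2B, 14.9 for H3, 11.3 for H4 and 10.2 for H1. The ranges overlapped between all types. H2A spanned 5.5 to 97 and H4 spanned 5.07 to 37.7 in the GFP-negative list, and the 5 H1 values of 6.44 to 17.1 fell inside both ranges. H4 was highest among the medians of the GFP-negative list and the lowest core type in the GFP-positive list. Genes of a divergent pair share peaks, so the values for H2A and H2B are not independent.

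**Figure D2:**
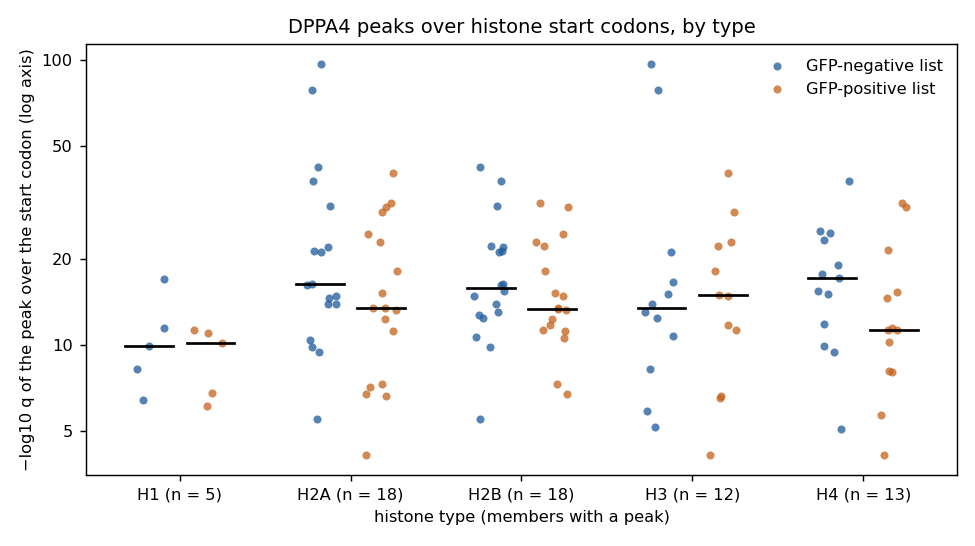
Each point is 1 member with a peak over its start codon, placed by the −log10 q of that peak on a log axis, in the GFP-negative (blue) and GFP-positive (orange) lists, and black bars are medians. The 5 histone types overlap throughout, and the highest points are the duplicated Hist2 genes at 97 and 78.4 in the GFP-negative list.

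The strongest member peak of each list lay over duplicated H3 and H2A genes of the Hist2 cluster. Hist2h3c2 and Hist2h2aa2, which lie in tandem on the same strand, shared a peak of −log10 q 97 and fold enrichment 32.4 in the GFP-negative list and one of 40.2 and 17.5 in the GFP-positive list. These peaks ranked at percentiles 99.6 and 98 of their lists. Their duplicates Hist2h3c1 and Hist2h2aa1 shared peaks of −log10 q 78.4 and 29.2. Both pairs were highest among the H2A and H3 genes of the GFP-negative list, and Hist2h3c2 and Hist2h2aa2 were highest in the GFP-positive list as well.

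H2B and H4 were led by genes at a second duplication. Hist1h2br, an H2B gene, carried a peak of −log10 q 42.2 and fold enrichment 17.3 in the GFP-negative list and of 31.6 and 14.2 in that of GFP-positive cells, the highest of its type in each. The same peaks reached the window of the H4 gene Hist1h4n and made it the highest H4 gene by the rule. Over its own start codon, Hist1h4n had a separate peak of 9.92 in the GFP-negative list, whereas the peak of 31.6 extended over it in the GFP-positive list. The duplicates Hist1h2bq, Hist1h2ao and Hist1h4m shared peaks of 37.7 and 30.4. In all of these duplicated genes the summits had a copy number of 2, apart from the separate Hist1h4n peak with 4.

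The clusters were occupied along their length. The members of chromosome 13 formed 2 groups more than 500 kb apart, here called Hist1 group A (23 members from Hist1h2bl to Hist1h2bj, chr13:21715763-22043676) and Hist1 group B (31 members from Hist1h4h to Hist1h2aa, chr13:23531050-23934851). The Hist2 cluster held 10 members (chr3:96219865-96270132), the Hist3 cluster 2 (chr11:58948920-58956830), and Hist4h4 stood alone (chr6:136801553-136804415). All members of group A, Hist2, Hist3 and Hist4 carried peaks in both lists, as did 30 of the 31 members of group B. The median −log10 q over start codons was 21.3 in group A, 13.7 in group B, 19.4 in Hist2 and 18.4 in Hist3 in the GFP-negative list, and 15.4, 11.3, 22.3 and 8.88 in the GFP-positive list. Of the 5 Hist2 peaks over start codons 4 had a lower −log10 q in the GFP-positive list, and the higher median there came from the peak shared by Hist2h3b and Hist2h2bb. Hist4h4, an H4 gene, carried a peak of 19.1 and fold enrichment 10.8 in the GFP-negative list and of 11.3 and 7.94 in that of GFP-positive cells, both in single-copy sequence.

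Within group B most peaks belonged to histone genes. Of its 32 GFP-negative peaks 27 lay at members, as did 19 of its 21 GFP-positive peaks. Group A, which contains a long stretch without members, held 32 GFP-negative peaks with 15 at members and 41 GFP-positive peaks with 18 at members. Among the other genes in the span of group B, Trim38, a ubiquitin ligase gene, carried peaks of −log10 q 14 and 3.46, and the solute carrier genes Slc17a1, Slc17a2, Slc17a3 and Slc17a4 carried no peak in either list. Hfe, a regulator of iron uptake, carried only 1 weak peak of −log10 q 2.89 in the GFP-negative list. In group A, the zinc finger gene Zfp184 had 23 and 8.94, the serine protease gene Prss16 had 19.3 and 10.9, and Pom121l2 had 2.41 and 2.86.

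**Figure D3:**
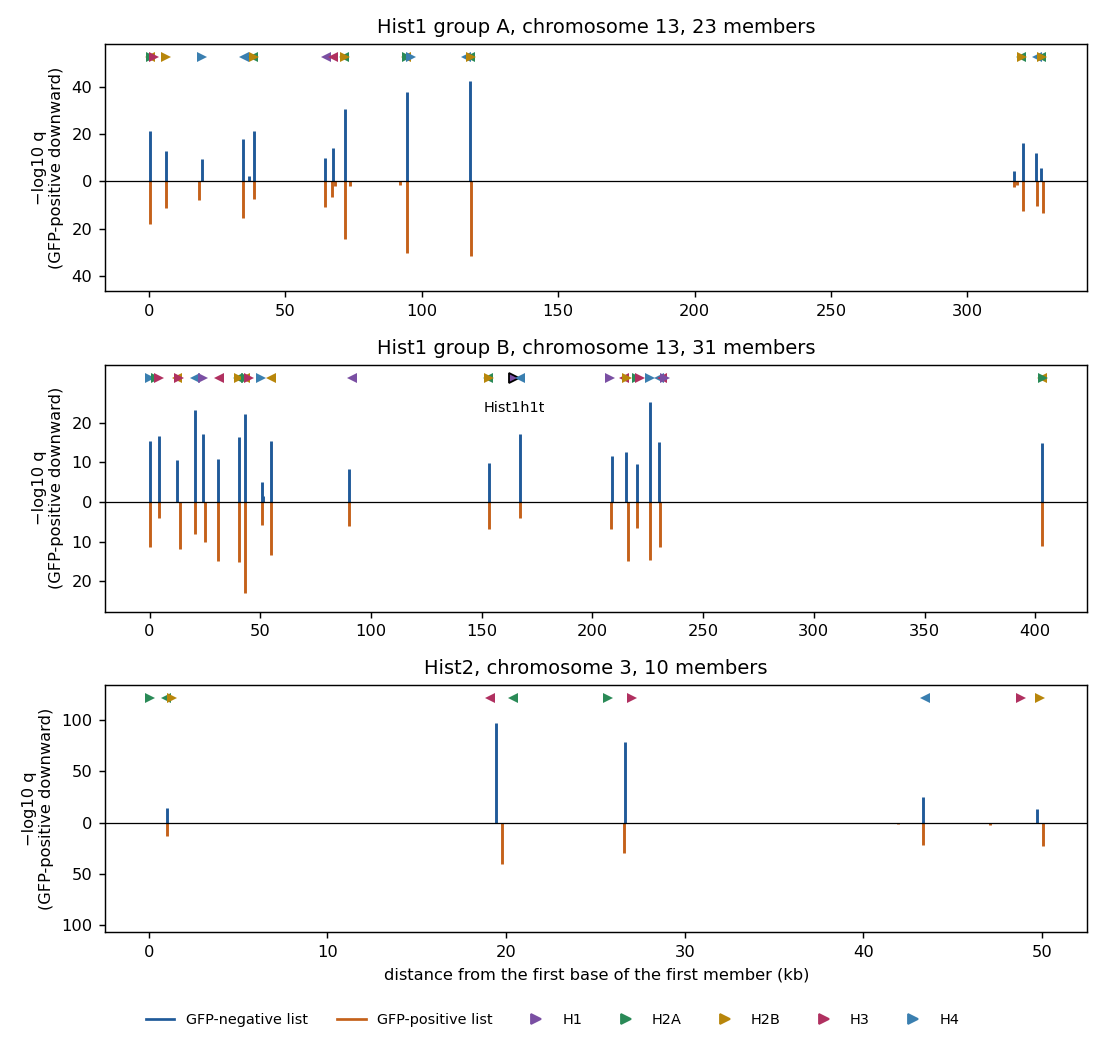
For 3 clusters, vertical lines mark the summit and −log10 q of the strongest peak in each region at a histone gene, GFP-negative upward and GFP-positive downward, against distance in kb from the first base of the first member, and triangles along the top mark start codons, coloured by type and pointing in the direction of transcription. Lines stand at nearly every triangle except Hist1h1t, and the tallest are the Hist2 lines at 97 and 78.4.

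Peaks covered the shared promoters of divergent H2A and H2B genes but were centred to one side. There were 12 such pairs, with start codons 279 to 335 bp apart (median 300 bp). In each list a peak covered the midpoint of all 12 pairs. The summit nevertheless lay between the start codons in only 4 pairs in the GFP-negative list and 3 in that of GFP-positive cells. It lay inside the H2B coding sequence in 7 and 9 pairs, and inside the H2A coding sequence in 1 and 0. At Hist1h2bl, for example, the summits were 111 and 103 bp into the H2B gene, in sequence with 12 copies. At Hist1h2bk both summits were 159 bp into the H2B gene, also with 12 copies. The 7 GFP-negative summits in H2B coding sequence had copy numbers of 11 or 12, and the 9 GFP-positive ones had 1 to 12. Over all members, H2A and H2B coding sequences had median copy numbers of 12 and 11. The part of repeated sequence in the side of the summit was not tested.

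The 4 pairs with a GFP-negative summit between the start codons were the 2 duplicated pairs and 2 pairs whose summits were in single-copy sequence. The Hist1h2ao/Hist1h2bq summits were at -14 and 65 bp from the midpoint, counted towards the H2B gene. The Hist1h2ap/Hist1h2br summit was 16 bp to the H2B side in the GFP-negative list. At Hist2h2ac/Hist2h2be, in single-copy sequence, the summits were at -106 and -134 bp, on the H2A side. Hist1h2ag/Hist1h2bj was the pair in which the lists differed most, with a summit inside H2A, at a copy number of 18, in the GFP-negative list and inside H2B, at a copy number of 10, in the GFP-positive list.

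**Figure D4:**
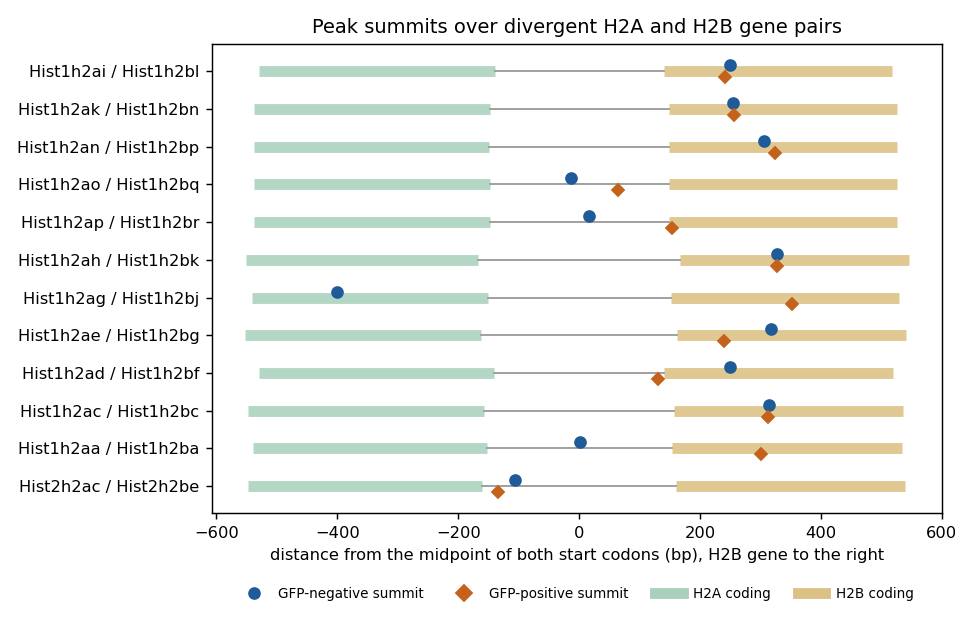
Each line is 1 of the 12 divergent pairs, drawn by distance in bp from the midpoint of both start codons with the H2A coding sequence on the left and the H2B coding sequence on the right, and with the summit of the GFP-negative peak (circle) and GFP-positive peak (diamond). In the GFP-negative list 7 summits lie in H2B coding sequence and 1 in H2A, and in the GFP-positive list 9 and 0.

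Most regions at members had a peak in both lists. Merging overlapping peaks gave 49 regions at members, of which 41 (83.7%) were common to both lists, 2 (4.08%) were GFP-negative-specific and 6 (12.2%) GFP-positive-specific. At the promoters of all protein-coding genes 59.5% of 24937 regions were common, while 30.5% held GFP-negative peaks alone and 10% GFP-positive peaks alone, and over all 97623 regions the shares were 34.6%, 47.1% and 18.3%. The specific regions were weak, with −log10 q of 1.47 and 2.14 in the GFP-negative list and at most 2.09 in the GFP-positive list, and their fold enrichment was at most 3.55. None of them was the sole peak of a member.

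Within the common regions the net shift in rank between the lists was smaller at histone genes than at promoters at large, with members shifted in both directions. Fold enrichment was higher in the GFP-negative list in 32 of 41 member regions (78%) and in 81.8% of the 14826 common regions at protein-coding promoters. By percentile, however, the GFP-negative value was the higher in 22 of 41 member regions (53.7%) against 76.4% of promoter regions, and the median difference, GFP-negative minus GFP-positive, was 0.717 against 6.37 percentile points. Across regions, Spearman's rho between the fold enrichments of both lists was 0.595 at members and 0.752 at promoters, over regions that share the libraries of each list. Repeated sequence moved with this measure. The median difference was 1.99 points in the 13 member regions with both summits single-copy and 0.00776 in the other 28, and 6.5 and 2.49 points in the corresponding promoter regions. Its part in the result was not tested.

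Peaks were wider in the GFP-positive list in 28 of 41 member regions (68.3%), with a median ratio of widths of 1.22, against 49.2% and a ratio of 0.996 at promoters. Among the 13 single-copy member regions 7 were wider in the GFP-positive list, and among the other 28 regions 21 were. At promoters with a repeated summit 67.6% were wider. The strongest summits of both lists lay within 200 bp of each other in 27 of 41 member regions (65.9%) and in 76.8% of promoter regions.

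A few members changed rank between the lists. Hist1h4c, an H4 gene, carried a peak of −log10 q 17.2 and fold enrichment 8.9 in the GFP-negative list but of 4.14 and 4.45 in the GFP-positive list, 29.1 percentile points lower. Hist1h3g, an H3 gene, went from 16.6 and 8.52 to 4.12 and 3.67, 28.7 points lower. Hist1h2bn, an H2B gene, went from 21.4 and 8.75 to 7.34 and 5.03, 16.2 points lower. Its divergent H2A neighbour Hist1h2ak shared these peaks. In the other direction, Hist1h2ag, an H2A gene, rose by 22.7 points, from 5.5 and 4.2 to 13.3 and 7.89. Hist2h3b (H3) and Hist2h2bb (H2B) shared peaks of 13.1 and 6.14 in the GFP-negative list and of 22.3 and 11.5 in that of GFP-positive cells, 11.6 points higher. Of the members named so far in this paragraph, only Hist2h3b and Hist2h2bb had peaks with single-copy summits in both lists. Other members with such summits moved too, and Hist1h4f fell from percentile 89.6 to 75.1. In the 13 member regions with both summits single-copy, the GFP-negative percentile was the higher in 8. By the peak over the start codon, other members moved as well. Hist1h3d rose from percentile 71.2 to 92.8, and Hist1h2af fell from 76.6 to 56.2.

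**Figure D5:**
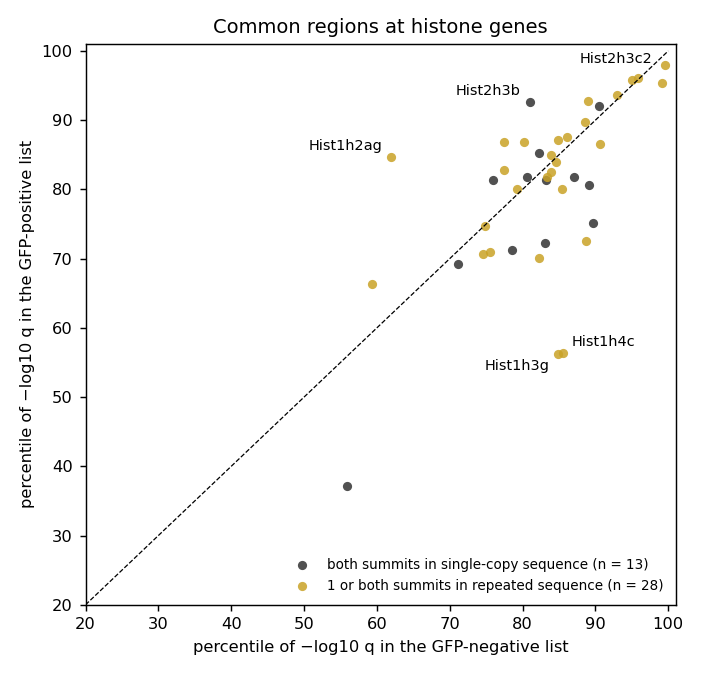
Each point is 1 of the 41 common regions at histone genes, placed by the percentile of its strongest −log10 q in the GFP-negative list (horizontal) and the GFP-positive list (vertical), and coloured by whether both summits were single-copy (13 regions) or not (28 regions), with equal percentiles along the dashed line. Hist1h4c and Hist1h3g lie farthest below the line and Hist1h2ag farthest above it.

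The linker histone genes had the lowest median strength of the types, and the summits of several lay away from the start codon. By the strongest peak in its window, Hist1h1d led the H1 genes in the GFP-negative list with −log10 q 23.3, but that peak lay over the neighbouring H4 gene Hist1h4f and was reached through an annotated transcript start upstream of the coding sequence. The peak over the start codon of Hist1h1d had −log10 q 17.1 with a summit 132 bp downstream in the GFP-negative list, and 10.2 with a summit 918 bp downstream in that of GFP-positive cells. Hist1h1b, the H1 gene of group A, had 9.93 and 11, with summits 95 and 396 bp downstream. Hist1h1a led in the GFP-positive list with 11.3, in a peak that also covered Hist1h3a and Hist1h4a. The summit of that peak lay at -2182 bp from the Hist1h1a start codon and at -378 bp from that of Hist1h4a. In the GFP-negative list Hist1h1a had 6.44 over its start codon, with a summit at -112 bp. At Hist1h1e the summits lay 1291 and 1293 bp downstream of the start codon, past the coding sequence, with −log10 q 8.27 and 6.14. Hist1h1c likewise had its summits 952 and 769 bp downstream, with −log10 q 11.5 and 6.82. The Hist1h1e peaks also covered an annotated transcript start of the H2B gene Hist1h2be, close to their summits.

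Of the 3 testis-type members, Hist1h1t lacked a peak whereas Hist1h2aa and Hist1h2ba, a divergent H2A and H2B pair, shared one. The shared peak had −log10 q 14.9 and fold enrichment 8.87 in the GFP-negative list and 11.2 and 7.59 in that of GFP-positive cells, and its summits were in single-copy sequence. Hist1h1t lies between occupied genes. The nearest peak downstream, over Hist1h4c, began 0.794 kb from its end in the GFP-negative list and 0.751 kb from it among GFP-positive peaks, and the nearest upstream peak ended 10.6 and 10.4 kb away. The 250 bases before the RefSeq starts of Hist1h1t (chr13:23695561-23695810, plus strand) and Hist1h1a (chr13:23763418-23763667, plus strand) are set side by side as the member without a peak and an H1 gene with one, with the CCAAT box, the TATA box (TATAAA) and the H1 box (AAACACA) in capitals. Only exact matches were marked, so the similar run tatataa in Hist1h1t is not in capitals.

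Hist1h1t promoter: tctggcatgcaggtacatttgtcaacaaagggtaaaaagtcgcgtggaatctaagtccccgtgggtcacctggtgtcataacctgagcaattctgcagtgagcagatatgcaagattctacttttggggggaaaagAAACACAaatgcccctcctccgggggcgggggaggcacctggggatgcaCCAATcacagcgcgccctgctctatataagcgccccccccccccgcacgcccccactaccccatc

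Hist1h1a promoter: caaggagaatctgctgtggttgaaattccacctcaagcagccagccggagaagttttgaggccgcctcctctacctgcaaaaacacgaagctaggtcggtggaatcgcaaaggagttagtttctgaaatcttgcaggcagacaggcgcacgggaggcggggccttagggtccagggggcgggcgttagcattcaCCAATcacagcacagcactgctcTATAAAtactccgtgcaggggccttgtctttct

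The member promoters were dense in CpG dinucleotides. In the 500 bp on either side of the 5′-most annotated start, the ratio of observed to expected CpG had a median of 0.879 over the 67 members and 0.568 over all protein-coding genes, and the member median exceeded 89% of all genes. GC content was similar, at 53.7% and 55%. Hist1h1t had a CpG ratio of 0.438, and only 1 member was lower. That member was Hist1h1d, at 0.115, whose annotated start lies upstream of its coding sequence.

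Some promoter elements differed in frequency between histone types. Motifs were searched on both strands of the 250 bases before RefSeq starts, which matched 62 of the 67 members, and in all 32851 RefSeq promoters. CCAAT was present at 51 of 62 members and 33.8% of all promoters. It was found at all 18 H2A, all 16 H2B and all 6 H1 promoters searched, at 8 of 10 H3 promoters, and at 3 of 12 H4 promoters. The TATA sequence TATAAA was present at 29 of 62 members and 12.4% of all promoters. It occurred in every type, at 4 of 6 H1, 7 of 18 H2A, 8 of 16 H2B, 4 of 10 H3 and 6 of 12 H4 promoters. The octamer ATTTGCAT, which POU-domain factors recognise, was present at 14 of 62 members and 1.6% of all promoters, at 7 H2A and 7 H2B genes. Divergent H2A and H2B genes share upstream bases, so a motif there can be counted for both, and their counts are not independent. The H1 box AAACACA was present at 9 of 62 members and at 6.25% of all promoters. These were 5 of 6 H1 promoters, Hist1h1t among them, 2 of 18 H2A and 2 of 16 H2B promoters. The GC box GGGCGG was present at 20 of 62 members, 9 of them H4 genes, and 32.7% of all promoters. Hist1h1t held the CCAAT box, the H1 box and the GC box but no TATAAA. The H1 gene Hist1h1c, which had a peak, also held no TATAAA. Only the exact letters were searched, and the similar run tatataa in the Hist1h1t promoter was not counted. A lack of TATAAA is therefore not a lack of every TATA-like sequence. Since all but 1 member carried peaks, no element could be set against the presence of a peak.

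Genes that act on the histone genes carried peaks as well. Of 21 listed factors for histone transcription and 3′ end processing, 20 were on these chromosomes. Of these, 20 carried a peak in the GFP-negative list and 19 in that of GFP-positive cells, against the 77.4% and 71.1% of all genes. The median of their strongest −log10 q was 33.4 and 19.5, compared with 17.6 and 10.2 over all genes with a peak. E2f1, a transcription factor of S-phase entry, had 118 and 32.9, Hinfp, an activator of H4 genes, had 80.7 and 30.6, and Npat, the cyclin E and CDK2 target that activates histone genes, had 37.7 and 19.5. Slbp, which binds the histone mRNA stem-loop, had 42.3 and 26.8. Lsm11, a subunit of the U7 particle that cleaves histone transcripts, had a peak of 11.5 in the GFP-negative list and none in the GFP-positive list.

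Histone genes expressed outside S phase were read against the same background. Of 17 listed replication-independent histone genes, 14 were on these chromosomes, and 12 carried a peak in both lists, as did 69.0% of all genes. Their median −log10 q was 23.9 and 13.5, compared with 17.6 and 10.2 over all genes with a peak. H3f3a, for the variant H3.3, had 95.7 and 34.5, H2afv had 65.9 and 47, and H2afz, for H2A.Z, had 17.6 and 11.3. The oocyte linker histone gene H1foo and the spermatid gene Hils1 carried no peak in either list, and the testis gene H1fnt had weak peaks of 4.57 and 1.93. Among the members, Hist1h1t likewise carried no peak in either list, as did 20.5% of all genes. The testis-type members Hist1h2aa and Hist1h2ba shared peaks of 14.9 and 11.2. These germ-line genes were brought together after the values were seen, so no result about germ-line genes is drawn from them.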

How the data were processed

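DPPA4 CUT&RUN peaks were taken from the 2 deposited lists, each pooled over 2 libraries. As the study's methods state, the authors used bbduk to trim reads, then aligned them to mm10 with STAR, placing a multimapping read at 1 best or random position, removed duplicates with Picard and blacklisted high-signal regions, and called peaks with MACS2 on fragments. The submitters' processing notes name STAR 2.7.10, Picard 2.26.0, SAMtools 1.14, bedtools 2.30.0 and MACS2 2.2.6. The control used in peak calling was not given in the sources used here, and the 2 IgG libraries were not used here. The deposited fold enrichment is the authors' ratio of summit signal to the local background, the deposited −log10 q is MACS2's adjusted significance (lowest value 1.30), and the deposited score, another MACS2 scale of significance, was not used. All can depend on depth, so strength was also compared by rank within a list. Raw values of both lists set side by side are descriptions.

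Windows, overlaps of at least 1 bp and merged regions were computed with Python 3.11.15, numpy and pandas and tested on simulated data. Copy number was the median genomic count of the 31-base words in the 200 bp around a summit. Clusters were split at gaps over 500 kb. No model was fitted and no test was made, since the lists carry no replicates. Genes named in full were the strongest member of each type in each list, members in 1 list or in none, the 3 largest percentile differences in each direction, testis-type members and single-gene clusters. Members and lists were chosen with earlier results of these data known. Promoters were matched to RefSeq (GRCm38.p6) by synonym, chromosome and strand. Per-sample columns left out of use numbered 0.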

Additional observations from a re-analysis of the deposited data

How the results depend on the processing

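The counts of members with a peak in each list and in both stayed within 1.5 times of those reported, except under 3 alternatives. With single-copy summits they were 31 (GFP-negative), 32 (GFP-positive) and 25 (both), with 6 in the GFP-negative list only, 7 in the GFP-positive list only and 29 in neither. With the 10000 strongest peaks of each list 26 members carried a peak in the GFP-negative list and 21 in both, with 5 and 28 in 1 list only and 13 in neither. Counted as loci, 32 of 33 carried a peak in the GFP-negative list, 32 in the GFP-positive list and 32 in both. This last alternative changed the unit counted and left nearly every locus with a peak. Members in the GFP-negative list only became 2 at −log10 q of at least 5, 8 at 10 and 2 when the summit had to lie in the window. Members in the GFP-positive list only became 1 at 10 and 1 by summit. Members with no peak became 8 at 10, 4 by summit, 2 within 500 bp of transcript starts and 0 without testis-type members. Common regions became 26 at 10 and 9 with the 10000 strongest peaks. GFP-negative-specific regions became 8 at 10, 0 with the 50000 strongest peaks and 15 when common regions needed summits within 200 bp. GFP-positive-specific regions became 0 at 5, 2 at 10, 16 with the 10000 strongest peaks and 19 by the summit rule. The share of all genes with a peak in the GFP-negative and GFP-positive lists was 66.4% and 52.7% at 5, 53.5% and 36.2% at 10, 72.7% and 70.2% with the 50000 strongest peaks, 34.8% and 33.5% with the 10000 strongest, 71.9% and 63.7% for the promoter window, 70% and 61.5% within 500 bp of transcript starts, 76.1% and 69.7% for the gene alone, and 47.1% and 44% for windows of at most 5000 bp. This last setting and the overlap with the start codon were chosen after seeing the data. For genes in 1 list only or in neither, the share of all genes was not computed under these alternatives. Other causes were not tested. No paired analysis was possible because each list pools its libraries. The numbers of reads kept behind the lists are unknown, so a difference in the number or strength of peaks cannot be told apart from one of depth.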

Other observations

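Histone pseudogenes outside the protein-coding set also carried peaks. Hist1h2aj (chromosome 13) had a peak of −log10 q 12.8 in the GFP-negative list and 11.3 in that of GFP-positive cells, in the region of its neighbour Hist1h2bm. Hist1h2al, a processed H2A pseudogene on chromosome 13 outside both Hist1 groups, had 12.6 and 8.31. Hist3h2bb-ps, on chromosome 11, lay in the Hist3h2a peak of 14.7 and 7.16.

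The long stretch of Hist1 group A without histone genes holds tRNA genes. RefSeq places 31 tRNA genes within the span of group A, of which 4 lay in a GFP-negative peak and 8 in a GFP-positive peak. Of the peaks of group A away from members, 4 of 17 in the GFP-negative list and 8 of 23 in the GFP-positive list covered a tRNA gene, with a median −log10 q of 1.79 and 2.55.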
